A study of Drosophila melanogaster with 15 samples.

Results

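Males that lack *Dys*, the fly dystrophin gene, were compared with control males in 3 conditions by RNA sequencing of whole flies. The comparison uses 6 of the 15 libraries of the series, chosen by their labels: 3 from males homozygous for a deficiency of the region, Df(3R)Exel6184/Df(3R)Exel6184, called *Dys* mutants here, and 3 from control males of the genotype CantonS/w[1118]. All males were 1 week old. Before extraction they spent 5 days at 25°C (unstressed), 5 days at 33°C (temperature stress) or 4 days on yeast paste without sugar (metabolic stress). The remaining 9 libraries came from males labelled *Dg* (Dg[O55]/Dg[O86]), *Syn1* (Df(3L)BSC450/deltaSyn1[5-2]) and *Nos* (Df(2L)BSC230/deltaNos15) in these conditions, and they were used for the estimate of spread and for a single contrast with the *Dys* mutants. Each library was made from a pool of males, and every genotype was sequenced once per condition, without replicates. The deficiency was outcrossed and removes neighbours of *Dys* as well, while the control was a hybrid of other stocks. Loss of *Dys*, loss of its neighbours and genetic background therefore cannot be told apart in this comparison.

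Dystrophin is a large cytoplasmic protein that links the actin cytoskeleton to dystroglycan in the cell membrane and, through it, to the extracellular matrix. Together with syntrophins and sarcoglycans it forms the dystrophin glycoprotein complex (DGC), which protects the muscle membrane during contraction and holds signalling proteins such as nitric oxide synthase at the membrane. In flies the complex also acts in neurons and epithelia, and loss of dystrophin in people causes Duchenne muscular dystrophy.

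The level of a locus is given in FPKM, a fragment count corrected for transcript length and for the number of fragments mapped in the library. Ratios were taken on log2(FPKM + 1) within each condition and averaged over the 3 conditions, so that a standard deviation (SD) with n = 3 measures how the 3 conditions differ, not how replicates do. Values for single libraries always follow the order unstressed, temperature, metabolic. A locus is said to be called when it passed a Benjamini-Hochberg adjusted p of 0.1 over all loci, in limma with genotype and condition as terms, and "rose" and "fell" are used of called loci only. The p-values rest on the disagreement between conditions and between genotypes, since a sign-flip test over the 3 pairs alone cannot go below 0.25. Relative depth, recovered from the steps between low values, ran from 0.798 to 1.0 in the 6 libraries, and absolute depth is unknown. In RNA from whole flies, fewer cells of a type and less RNA per cell cannot be told apart.

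The genotype was checked first. All 12 loci listed under *Dys* alone stood at 0 in each of the 3 *Dys* mutant libraries, and 8 of them were above 0 in every control library. The *Dys* locus with the highest level (chromosome 3R, 15238066 to 15468448, build not stated with the values) had 28.7, 22.9 and 30.1 FPKM in control. A further 5 loci of the region were listed at 0 in the mutants and above 0 in control, namely *CG17752*, *CG7342*, *CG15025*, *Cpr92A* and *CG6231*. *CG16718*, on the same stretch, was kept at 1.38, 2.4 and 1.49 FPKM against 12.8, 12.9 and 16.3. Its neighbour *CG3517* was higher in the mutants, with 265, 276 and 306 FPKM against 200, 216 and 164. The 60 loci within 200 kb of *Dys* were kept out of the named genes and lists that follow, which leaves 10290 of the 10350 loci analysed. They stayed in the model, in the adjustment of p and in the counts given over all loci.

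Outside the deficiency, 4310 loci (41.9%) were called against no change, of which 2090 (20.3%) were higher and 2220 (21.6%) lower in the *Dys* mutants. Over all 10350 loci, the region included, these shares were 42%, 20.3% and 21.6%. Without the metabolic control library the count over all loci fell from 4344 to 2462. Most of these differences were small. The mean log2 ratio reached 1 or -1 at 852 loci outside the deficiency (8.28%), with 284 higher (2.76%) and 568 lower (5.52%), and the median of all loci was -0.02. Over all loci this share was 8.35%, and 7.81% were also called against no change. Against a 2-fold change as the null, 113 loci outside the deficiency (1.1%) were called, 58 of them higher (0.564%) and 55 lower (0.534%), or 1.17% over all loci. The *Dys* and control libraries did not overlap at 3502 loci (34%), with *Dys* higher at 16.3% and lower at 17.7% of loci, which is the background for every such statement about a single gene (34.1% with the region).

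**Figure D1:**
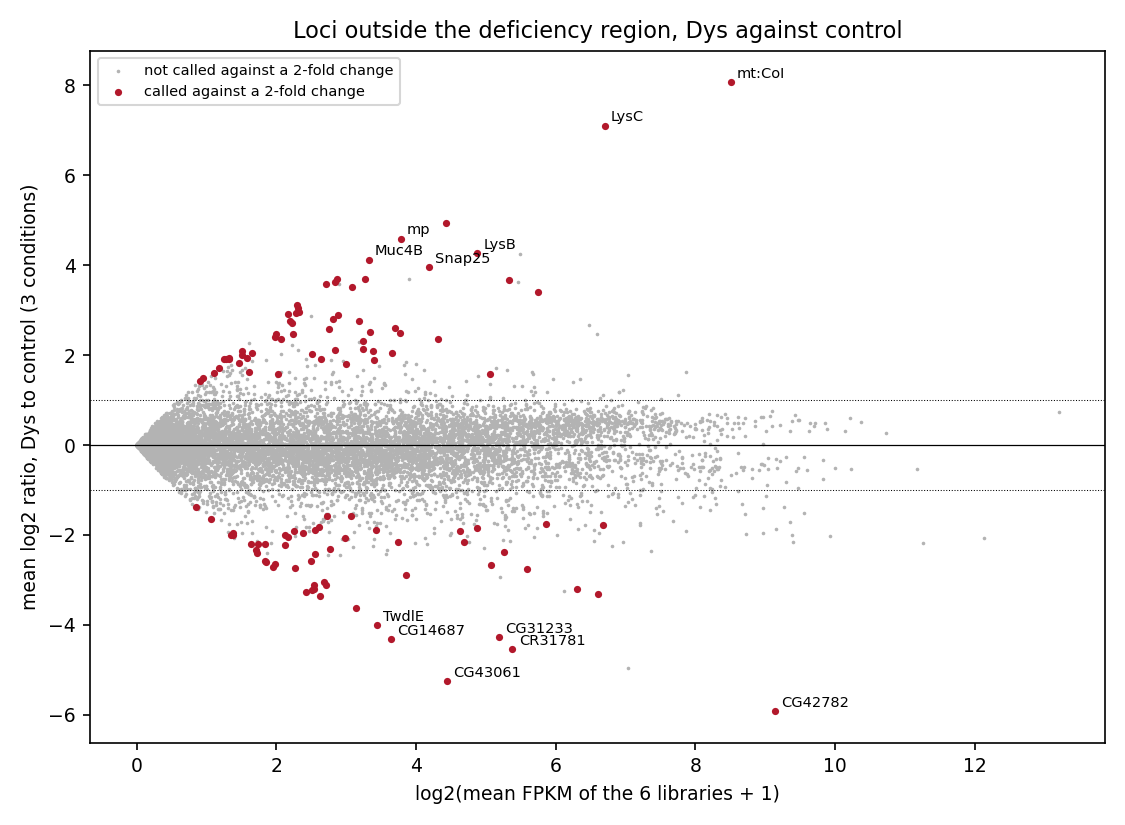
Mean log2 ratio of *Dys* mutants to control over 3 conditions (vertical) against the level of each locus, log2 of the mean FPKM of the 6 libraries plus 1 (horizontal), for 10290 loci outside the deficiency region. Red points are the 113 loci called against a 2-fold change, dotted lines mark log2 ratios of 1 and -1, and points lie on both sides of 0, from 8.07 at *mt:CoI* to -5.92 at *CG42782*.

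The lower end was led by *CG42782* (2R, 8305740 to 8306951), which had 997, 602 and 1730 FPKM in control and 17.2, 9.41 and 23.7 in *Dys* mutants. Every mutant library was far below every control library, and the mean log2 ratio was -5.92 ± 0.19 (SD, n = 3, adjusted p = 6.34e-05). *CG43061* followed with 29.5, 26.1 and 69 FPKM in control and at most 0.0475 in the mutants (-5.24 ± 0.76). A neighbouring pair on 3R moved in opposite directions. *CG14687* (3R, 6617845 to 6625319) dropped from 34.6, 7.19 and 27 FPKM to 0, 0 and 0.0239, a log2 ratio of -4.32 ± 1.13. *CG14692*, which begins just beyond it (6625805 to 6626403), rose from 7.18, 2.85 and 5.35 FPKM to 70.9, 84.6 and 65, a log2 ratio of 3.66 ± 0.71. The groups did not overlap at either gene. The noncoding RNA *CR31781* fell as well, but with 26.1 FPKM left under temperature stress against 0 in the other mutant libraries. *gogo*, a receptor that guides photoreceptor axons, had 10.3, 10.6 and 6.96 FPKM in control and at most 0.0956 in the mutants, and with its 3 loci summed its log2 ratio was -2.78. *TwdlE*, a cuticle protein of the Tweedle family, fell by 4.00 ± 0.95 on the log2 scale. The others of the 12 lowest loci named by the rule were *CG31233*, *CG42788*, *CG33462*, *Acp24A4*, *ttv* and *CR43495*.

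The 12 highest loci named by the same rule were led by *mt:CoI*, the mitochondrial gene of a cytochrome oxidase subunit, at 8.07 ± 0.26. This locus was listed at 1.47, 1.33 and 2.38 FPKM in control and 642, 755 and 774 in *Dys* mutants. Its ratio to control was 8.54 in *Nos* but -0.02 in *Dg* and -0.04 in *Syn1* libraries. The reason for this step between genotypes was not tested. The 12 also included *LysC*, *LysB*, *Muc4B*, *CR43839*, *CG42720*, *CG4998* and *CG14692*. In the remaining 4 the locus that rose was one of several listed for the gene. *Mkp3*, a phosphatase that switches off ERK signalling, rose from 0.0384, 0 and 0 FPKM to 11.8, 11 and 10.3 at this locus, while the summed loci had a log2 ratio of 1.35. *Snap25*, a membrane fusion protein of nerve endings, rose by 3.96 ± 0.87 at its locus, and its 5 loci summed gave 0.39 (adjusted p = 0.28). For *dpr6*, an immunoglobulin-domain surface protein of neurons, the figures were 3.69 at the locus and 1.33 summed. *mp*, a matrix collagen, had 4.59 at the locus and 1.77 summed. The reverse case was *ttv*, a heparan sulphate polymerase, whose named locus was listed at 0 in all *Dys* mutant libraries against 8.14, 8.58 and 9.42 FPKM in control, while its 4 loci summed gave -0.81. For all of these genes the named locus and the summed loci thus gave different values.

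To describe functions, 48 gene lists were read, each member at its locus with the highest level. Each count of called members stands beside the 41.9% of loci called outside the deficiency, 20.3% higher and 21.6% lower. The lists with the clearest direction were muscle contraction, energy metabolism, ribosomes, seminal proteins, detoxification and odorant binding on the lower side, and lysozymes and sperm genes on the higher side. For accessory gland (31.8%), lipid (36%) and UDP-glycosyltransferase genes (40%) the total share called was below that of all loci, so these lists leaned in direction only.

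**Figure D2:**
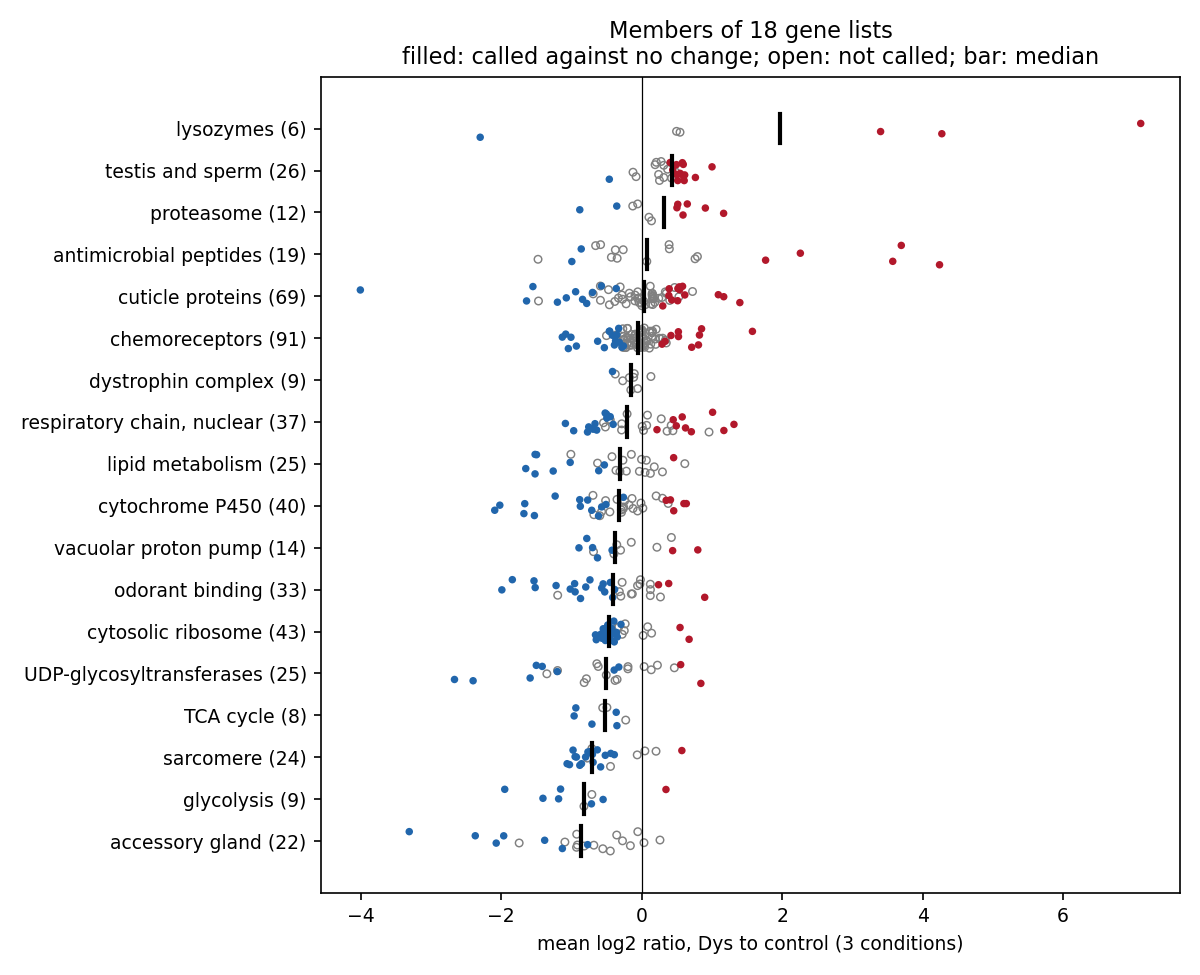
Mean log2 ratio of *Dys* mutants to control (horizontal) for the members of 18 gene lists, ordered by median, with the number of members in parentheses. Filled points were called against no change (red higher, blue lower), and open points were not. Black bars are medians, from 1.97 for lysozymes to -0.87 for the accessory gland list.

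Genes of the muscle contractile apparatus were lower in *Dys* mutants. Of 24 sarcomere genes read, 17 fell and 1 rose, with a median log2 ratio of -0.70 against -0.02 for all loci. *tmod* (tropomodulin, which caps the pointed ends of thin filaments) had 90.1, 56.1 and 74.1 FPKM in control and 43.1, 30.4 and 30.2 in *Dys* mutants. Each mutant library was below each control library, and the log2 ratio was -1.06 ± 0.20 (SD, n = 3, adjusted p = 0.000293). *bt*, which encodes projectin, an elastic kinase that spans part of the sarcomere, was at 20.7, 15.9 and 23.3 FPKM in control and 9.55, 9.74 and 8.32 in the mutants (-1.03 ± 0.36, adjusted p = 0.00458). The groups were again apart. *Mhc*, the only muscle myosin heavy chain gene of the fly, had 343, 294 and 369 FPKM in control and 198, 227 and 115 in the mutants (-0.95 ± 0.66, adjusted p = 0.0493). The difference was smallest under temperature stress and largest under metabolic stress. *up*, a troponin T, fell by 0.86 ± 0.46 on the log2 scale. *TpnC41C*, a calcium-binding troponin C of flight muscle, dropped by 0.98 ± 0.52, and *Act57B*, a muscle actin, by 0.88 ± 0.89. The calls of *Mhc* and *Act57B* were lost without the unstressed control or either metabolic library, with adjusted p up to 0.205 and 0.287, and that of *Act57B* also without the unstressed *Dys* library. *Zasp52*, a protein of the Z-disc where thin filaments are anchored, fell by 0.76 ± 0.22. The one gene that rose was *cpa*, an actin-capping subunit used in every cell, at 0.57 ± 0.22. The summed level of the list was 4943, 2673 and 5162 FPKM in control and 2973, 2501 and 2122 in *Dys* mutants. In control it was thus lowest at 33°C, where the median ratio of the list was -0.10, against -0.70 unstressed and -1.19 on yeast paste. The number called lower dropped to 7 without the unstressed control library, to 6 without the metabolic control library and to 8 without the metabolic *Dys* library. It was 4 without the unstressed libraries of all genotypes, 7 without the metabolic ones and 8 without a condition term.

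Calcium handling moved with the contractile genes at its main muscle component. *Ca-P60A* (SERCA), the pump that returns calcium to the sarcoplasmic reticulum after contraction, had 970, 358 and 871 FPKM in control and 399, 210 and 192 in *Dys* mutants. The unstressed mutant library was above the heat-stressed control library, so the groups overlapped, while all 3 within-condition ratios were negative (-1.41 ± 0.71, adjusted p = 0.00516). Both calcineurin catalytic subunits that were read fell, *CanA1* by 0.70 ± 0.26 and *CanA-14F* by 0.64 ± 0.18. *Itp-r83A*, a calcium release channel of the endoplasmic reticulum, fell by 0.39 on the log2 scale at its main locus, and its loci summed gave -0.10. The ryanodine receptor *Rya-r44F*, the release channel of muscle, was listed at 0.174 FPKM or less in all 6 libraries, too low for its ratio to be read. In all, 7 of 16 members fell and none rose, with a median of -0.23. The share called was 43.75% against 41.9% of all loci. Left out 1 at a time, the metabolic control library, the heat-stressed *Dys* library and the metabolic *Dys* library each brought this count to 4. *CanA1* was among those lost without the metabolic *Dys* library (adjusted p = 0.111).

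Enzymes of carbohydrate breakdown were lower. Of 9 glycolytic and related enzymes, 6 fell and 1 rose, with a median of -0.82. *UGP*, which makes UDP-glucose for glycogen and trehalose, had 107, 79.1 and 290 FPKM in control and 40.7, 39.3 and 25.2 in *Dys* mutants. Control was highest on yeast paste, and the mutants were lowest there (-1.95 ± 1.34, adjusted p = 0.00594). *Gpo-1*, the mitochondrial enzyme of the glycerophosphate shuttle that flight muscle relies on, was at 79.4, 35.7 and 69 FPKM against 34.1, 16.5 and 17.2. The mutant libraries all lay below the control libraries, with a log2 ratio of -1.40 ± 0.48 (adjusted p = 0.00662). *Gapdh2*, a central glycolytic dehydrogenase, fell by 1.15 ± 0.74, and *fbp*, an enzyme of the reverse path to glucose, by 1.18 ± 0.80. The hexokinase *Hex-A* dropped by 0.71 ± 0.21. *Glut1*, a glucose transporter, was the gene that rose, by 0.35 ± 0.24, and it was not called without either unstressed library or the heat-stressed control (adjusted p up to 0.177). *fbp* was not called without either metabolic library (up to 0.191). In the list of the citric acid cycle and enzymes linked to it, 5 of 8 fell and none rose (median -0.52). The malic enzymes *Men* and *Men-b*, the pyruvate dehydrogenase subunit *l(1)G0334* and the cytosolic *Mdh1* are in this list but lie outside the cycle. Of these, *Mdh1* and *l(1)G0334* (-0.35 ± 0.27) fell. The largest drop was that of *Nc73EF*, a subunit of oxoglutarate dehydrogenase, with 176, 111 and 234 FPKM against 87, 77.7 and 90.2 (-0.96 ± 0.43). *Mdh1*, the cytosolic malate dehydrogenase, fell by 0.94 ± 0.54, and *Acon*, an aconitase, by 0.71 ± 0.38. The count for this list was 1 without the metabolic control library, 3 without the unstressed *Dys* library and 2 without the metabolic *Dys* library. *Mdh1* and *Acon* were both lost without the metabolic control (adjusted p up to 0.115 and 0.123). Without the unstressed libraries of all genotypes, 2 glycolytic enzymes and none of the citric acid cycle list were called lower.

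Nuclear genes of the respiratory chain changed in both directions. Of 37 read, 12 fell and 9 rose (median -0.21). One that fell was *blw*, an ATP synthase alpha chain, with 402, 245 and 548 FPKM in control and 229, 185 and 170 in *Dys* mutants (-0.97 ± 0.65, adjusted p = 0.0167). *CG1970* (*ND-49*), a complex I subunit, fell by 0.69 ± 0.57, and *sesB*, the ADP/ATP carrier of the inner membrane, by 0.64 ± 0.43. The 4 that rose the most carry names of second copies in the current annotation, a feature seen after their values, and *CG8680*, a complex I subunit, rose by 0.22 ± 0.07. *CG2014* (*ND-20L*) had 27.2, 24.8 and 17.6 FPKM in control and 42.2, 64.2 and 73 in the mutants (1.32 ± 0.69). *CG6485* (*ND-24L*) rose by 1.17 ± 0.34 and *CG7211* (*ATPsynGL*) by 1.01 ± 0.25. *CG14077* (*COX6AL2*) went the same way, at 0.71 ± 0.24. Where a copy and its parent gene are alike in sequence, reads could be divided between them, and these values are uncertain to that extent. The number of members called lower was 5 without the unstressed control library and 3 without either of the metabolic libraries, control or *Dys*. *CG1970* was lost without any of these (adjusted p up to 0.202).

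Among 25 genes of lipid metabolism, 8 fell and 1 rose (median -0.31), in all 36% against 41.9% of all loci. The largest drop was that of *Lip4*, a lipase, from 36.6, 23.7 and 50.4 FPKM to 13.9, 8.44 and 10.1 (-1.65 ± 0.49, adjusted p = 0.000208). *fabp*, a fatty acid carrier of the cytoplasm, had 118, 99.7 and 233 FPKM in control and 55.9, 51.4 and 40.9 in *Dys* mutants (-1.49 ± 0.86, adjusted p = 0.01). The groups did not overlap at either gene. Of genes of mitochondrial fatty acid burning, *CG2107* (*CPT2*), which completes the import of fatty acids, fell by 1.52 ± 0.39 and *CG12262* (*Mcad*), an acyl-CoA dehydrogenase, by 1.26 ± 0.31. *Acsl*, which activates long fatty acids, dropped by 1.02 ± 0.54. The gastric-type lipase *mag* fell by 1.52 ± 1.43, with 21.9 and 21.7 FPKM in the heat-stressed control and *Dys* libraries and a difference only in the others. Without the metabolic control library 5 members were called lower, and *mag* was lost without either metabolic library (adjusted p up to 0.122).

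Cytosolic ribosomal protein genes were lower by a small and even amount. Of 43 read, 33 fell and 2 rose, with a median of -0.46 and medians of -0.45, -0.38 and -0.52 in the 3 conditions. *RpS3A* had 351, 314 and 444 FPKM in control and 233, 199 and 274 in *Dys* mutants. All 3 mutant values lay below the lowest control value, and the log2 ratio was -0.64 ± 0.05 (SD, n = 3, adjusted p = 0.00556). *RpL37a* fell by 0.66 ± 0.14, *RpL39* by 0.57 ± 0.08 and *RpS7* by 0.56 ± 0.07. *Rack1*, a scaffold on the small subunit, fell by 0.58 ± 0.12. *RpL15*, at 140, 120 and 191 FPKM in control and 140, 136 and 227 in the mutants, was not called (0.14 ± 0.13). The 2 that rose, *RpS10a* (0.68 ± 0.28) and *RpL10Aa* (0.55 ± 0.18), are paralogues of other ribosomal protein genes. None of the 43 reached a 2-fold change. The number called lower was 21 without the unstressed control library and 17 without the metabolic control library, and *Rack1* was lost without either (adjusted p up to 0.128). It was 2 without the unstressed libraries of all genotypes and 9 without a condition term in the model.

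Of 27 translation factors and tRNA synthetases 6 were higher and 5 lower, in all 40.7% against 41.9% of all loci, so that the list was near the background in either direction. *eIF4G*, the scaffold of the cap-binding complex, fell from 53, 55.2 and 81.3 FPKM to 34.6, 39.7 and 36.3 (-0.74 ± 0.36, adjusted p = 0.00519). *eIF4E-3*, a cap-binding protein needed in spermatogenesis, rose by 0.68 ± 0.37 and its relative *eIF4E-4* by 0.54 ± 0.23. *eIF4E-3* passed by little (adjusted p = 0.0989) and was lost without any single library of either group except the heat-stressed control (up to 0.377). None of these 6 was called higher without the metabolic control library, and between 2 and 3 without the unstressed control, the heat-stressed *Dys* or the metabolic *Dys* library. The lower count was 1 without the metabolic control library, 3 without the unstressed *Dys* library and 2 without the metabolic *Dys* library. In the proteasome 6 of 12 genes rose and 2 fell (median 0.32). The 6 that rose included *Rpt4R* (11.2, 13.2 and 6.38 FPKM against 20.3, 35.5 and 17.6, a log2 ratio of 1.17 ± 0.31) and *CG31742* (*Prosbeta5R2*, 0.91 ± 0.14). *Prosbeta2R1* (0.65 ± 0.26) and *Prosalpha3T* (0.52) are further testis-type copies among them. The others that rose were *Prosbeta5R* (0.59 ± 0.09) and *CG6789* (0.50 ± 0.17). *Pros25* (0.11 ± 0.19), *Prosbeta4R2* (0.14 ± 0.28), *Prosalpha5* (-0.06 ± 0.24) and *Pomp* (-0.13 ± 0.20) were not called, so the rise was not one of the whole proteasome. *Pros45* fell by 0.35 ± 0.25. *Pros28.1* (*Prosalpha4*), a general core subunit, fell by 0.88 ± 0.48, a call lost without either metabolic library (adjusted p up to 0.142).

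Genes of the testis and of sperm were moderately higher in *Dys* mutants. Of 26 read, 13 rose and 1 fell, with a median of 0.43. *Mst87F*, a sperm tail protein, had 435, 393 and 353 FPKM in control and 672, 460 and 701 in *Dys* mutants, and the groups did not overlap (0.61 ± 0.38, adjusted p = 0.0198). *loopin-1*, an aminopeptidase-like protein of the sperm mitochondrial derivative, was at 962, 1113 and 774 FPKM against 1290, 1465 and 1509 (0.59 ± 0.32). *Mst35Ba* (*ProtA*), a protamine that packs sperm DNA, rose by 0.59 ± 0.23. The meiotic arrest genes *mia* and *sa*, which switch on spermatocyte transcription, rose by 1.00 ± 0.12 and 0.77 ± 0.21. Others of that kind, *aly* (0.37 ± 0.06), *can* (0.19 ± 0.09), *comr* (0.28 ± 0.12) and *nht* (0.49 ± 0.15), were not called. *svp*, a nuclear receptor that was in the list and is used in many tissues, was the one that fell (-0.46), a call lost without either heat-stressed library or the metabolic control (adjusted p up to 0.159). The summed level of the list was 5619, 6499 and 4560 FPKM in control and 7413, 7858 and 8119 in the mutants, without overlap. The number called higher was 5 without the metabolic control library and 8 without the metabolic *Dys* library. *Mst87F* and *Mst35Ba* were among those lost without the metabolic control (adjusted p = 0.101 and 0.11). The count was 1 without the unstressed and 5 without the metabolic libraries of all genotypes.

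Seminal fluid genes went the other way. Of 22 genes in the accessory gland list 7 fell and none rose, and the median was -0.87. The list also holds *Acp1* (-0.27 ± 0.24) and *Acp65Aa* (0.03 ± 0.27), which are cuticle proteins with a similar name and were not called. With them included, the share called, 31.8%, was below the 41.9% of all loci. *Acp24A4* had 168, 75.8 and 287 FPKM in control and 23.6, 8.81 and 15 in *Dys* mutants (-3.31 ± 0.75, adjusted p = 0.000251). *Sfp60F*, the most abundant of the named ones, was at 7833, 3785 and 10190 FPKM against 2585, 1192 and 1326 (-2.07 ± 0.76, adjusted p = 0.00335). The groups did not overlap at either gene. *Sfp24Ba* and *Sfp87B* fell by 2.37 ± 0.91 and 1.96 ± 0.67. *Acp70A*, the sex peptide that changes female behaviour after mating, had 533, 129 and 762 FPKM in control and 242, 121 and 260 in the mutants and was not called (-0.92 ± 0.75, adjusted p = 0.159). *Peb*, a protein of the ejaculatory bulb, dropped from 5067, 2748 and 4287 FPKM to 1110, 640 and 906. Its ratio was nearly the same in each condition (-2.18 ± 0.07, adjusted p = 0.00308). In control the summed accessory gland level was 11364, 5088 and 15276 FPKM, and in *Dys* mutants 4061, 1976 and 2619. At 33°C, where control was lowest, the median ratio was -0.09, against -1.02 unstressed and -1.31 on yeast paste. Without the heat-stressed control library 17 members were called lower. The same control libraries enter the comparisons of the other mutants, whose medians for this list were -0.89 (*Dg*), -0.55 (*Syn1*) and -1.60 (*Nos*). Against those mutants, 3 members were higher in *Dys* libraries and 1 was lower.

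**Figure D3:**
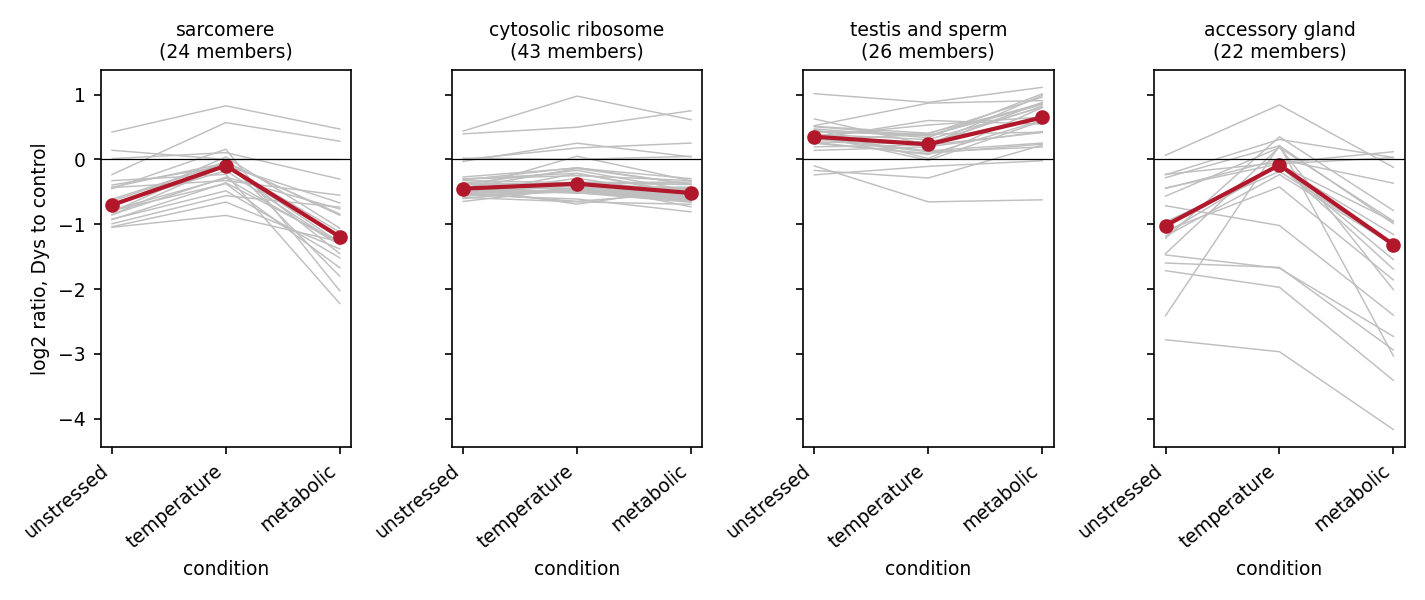
Log2 ratio of *Dys* mutants to control in each condition for 4 gene lists, with a grey line for each member and the median in red. The medians of the sarcomere and accessory gland lists lie near 0 under temperature stress (-0.10 and -0.09) and lowest under metabolic stress (-1.19 and -1.31), while the ribosome list stays between -0.38 and -0.52.

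The lysozymes, enzymes that cut bacterial cell walls and serve the fly mainly in digestion, are listed on a single stretch of 3L (1205467 to 1235457) and did not move as 1 block. *LysC* had 0.11, 0.19 and 0.339 FPKM in control and 80.8, 141 and 395 in *Dys* mutants, a log2 ratio of 7.10 ± 1.02. *LysB* rose from 0.722, 0.698 and 3.08 FPKM to 23.4, 30.4 and 112. *LysD* rose from 4.5, 4.1 and 10.1 FPKM to 30.4, 54 and 213. All 3 were highest on yeast paste in the mutants, and the groups did not overlap at any of them. *LysE* fell, from 65.4, 24.3 and 66.2 FPKM to 10.9, 6.74 and 9.35 (-2.30 ± 0.52, adjusted p = 0.000901). *LysP* (0.50 ± 1.00) and *LysS* (0.55 ± 0.88) were not called. These genes are close copies, so that reads may be assigned to the wrong member and the single values are uncertain. The summed level of all 6, which depends far less on that assignment, was 73.2, 31.1 and 85.5 FPKM in control and 152, 237 and 735 in *Dys* mutants. The sums did not overlap either.

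Other digestive genes were mixed. Of 6 Jonah serine proteases only *Jon99Fii* was called, at 175, 45.1 and 217 FPKM in control and 245, 169 and 434 in the mutants (1.12 ± 0.71, adjusted p = 0.0181). The abundant trypsin *betaTry* had 2244, 1448 and 3525 FPKM in control and 765, 1030 and 4831 in the mutants and was not called. Among 17 genes in the list of mucins and the peritrophic matrix, the sheath that lines the gut, 3 fell and 2 rose. The list also holds the salivary glue gene *Sgs1* and the ecdysone-induced *Eig71Eb*, *Eig71Ef*, *Eig71Eg* and *Eig71Ej*, none of them called. The share called was 29.4%, below the 41.9% of all loci. *Mur2B* fell from 8.22, 9.06 and 9.54 FPKM to 0.923, 0.905 and 0.714 (-2.43 ± 0.18, adjusted p = 2.83e-05), and *Muc68D* fell by 1.47 ± 0.24. *Muc4B* rose from at most 0.134 FPKM to 16.8, 22.8 and 14.3. Of 10 carbohydrate-digesting enzymes 2 fell (20%), led by *Ect3*, a beta-galactosidase (-1.83 ± 0.42). In the vacuolar proton pump, which acidifies gut and excretory tissue, 5 of 14 subunits fell and 2 rose (median -0.37). *VhaSFD* dropped by 0.89 ± 0.74 and *Vha16-1* by 0.78 ± 0.28. The lower count for the pump was 8 without the heat-stressed control, 2 without the metabolic control and 3 without the metabolic *Dys* library, and *VhaSFD* was lost without either metabolic library (adjusted p up to 0.117).

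Antimicrobial peptides, which fat body and gut release on infection, were near the background as a list. Of 19 read, 5 rose and 2 fell, in all 36.8% against 41.9% of all loci, and the median was 0.07. The 5 that rose had log2 ratios from 1.77 to 4.24. *Dro* (drosocin) had 1.15, 0.44 and 1.82 FPKM in control and 9, 25.1 and 226 in *Dys* mutants (4.24 ± 2.06, adjusted p = 0.0156). *DptB*, a diptericin, rose from 0.321, 0.477 and 0.546 FPKM to 4.46, 19.4 and 58 (3.70 ± 1.61, adjusted p = 0.016). Each rose least in the unstressed and most in the metabolic libraries. *AttD*, an attacin, was more even, with 11.7, 8.94 and 17.6 FPKM in the mutants against at most 0.139 in control (3.58 ± 0.50). *CecC*, a cecropin, had 3.37, 4.22 and 4.6 FPKM against at most 0.106 (2.26 ± 0.22). *AttC* rose by 1.77 ± 1.53, with no difference in the unstressed pair (0.759 and 0.937 FPKM). The 5 that rose are peptides best known as targets of the Imd pathway, and the Toll-dependent peptides of the Bomanin type were not among them. *CG15068* (*BomS6*) fell by 0.99 ± 1.06, a call lost without any single heat-stressed or metabolic library (adjusted p up to 0.212). Of the pathway genes themselves, 6 of 20 fell and 2 rose, in all 40%, which is near the background too. *Dif*, a Toll pathway NF-kappaB factor, fell from 4.86, 4.92 and 4.65 FPKM to 1.49, 2.42 and 1.17 (-1.14 ± 0.31, adjusted p = 0.00337). *psh*, a protease upstream of Toll, dropped by 0.78 ± 0.29. *Stat92E* of the JAK/STAT pathway fell by 0.48 ± 0.17 and its inhibitor *Socs36E* rose by 0.63 ± 0.46. *ird5*, an Imd pathway kinase, rose by 0.94 ± 0.99, with 219 FPKM in the metabolic *Dys* library against 71.7 and 71.5 in the other mutant libraries. Without the metabolic control library *Stat92E*, *Socs36E* and *ird5* were not called, and *Socs36E* and *ird5* were not called without the metabolic *Dys* library either (adjusted p up to 0.159, 0.188 and 0.186). Of 5 stress peptide genes of the Turandot family 1 fell and 1 rose, in all 40% against 41.9% of all loci (median 0.02). *TotZ* fell by 1.64 ± 0.56, and *TotB*, at a low level, rose by 0.76 ± 0.50. *PGRP-SC2*, a peptidoglycan-degrading enzyme, was listed at 0 in the heat-stressed control library and was not called.

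**Figure D4:**
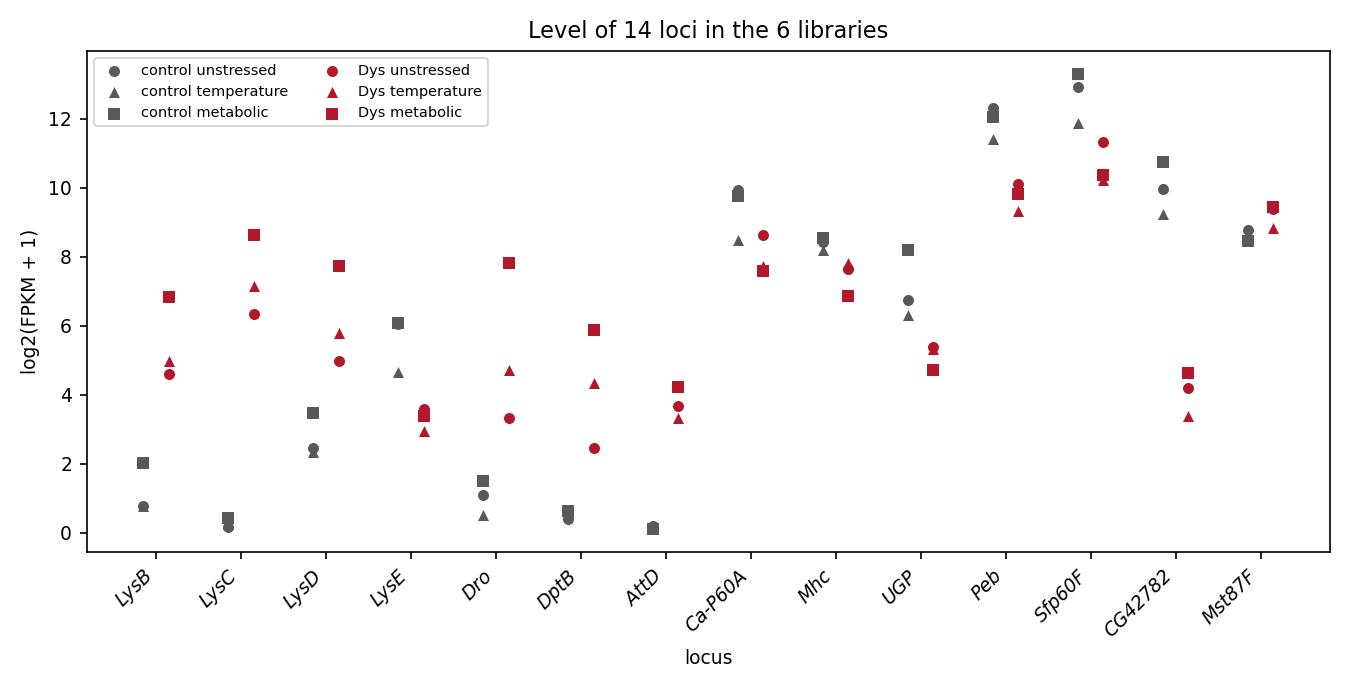
Level of 14 loci, log2(FPKM + 1), in the 3 control (grey) and 3 *Dys* mutant (red) libraries, with circles for unstressed, triangles for temperature and squares for metabolic libraries. Grey and red points do not overlap at *LysB*, *LysC*, *LysD*, *LysE*, *Dro*, *DptB*, *AttD*, *Peb* and *CG42782*, among others, and they overlap at *Ca-P60A*.

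Detoxification enzymes were lower by their medians. Of 40 cytochrome P450 genes, which oxidize drugs, pesticides and hormones, 14 fell and 5 rose (median -0.32). In all 47.5% were called, against 41.9% of all loci. *Cyp6a20* fell from 19, 9.92 and 19.3 FPKM to 1.96, 2.08 and 5.27 (-2.09 ± 0.58, adjusted p = 0.00366). *Cyp6w1* fell from 64.6, 35.1 and 25.5 FPKM to 13.4, 5.39 and 9.32 (-2.02 ± 0.59, adjusted p = 0.00506). Neither gene overlapped between the groups. *Cyp6a2*, a P450 linked to insecticide resistance, dropped by 1.66 ± 0.91 and *Cyp4d8* by 1.67 ± 0.27. The largest rise was that of *Cyp6a14*, 0.64 on the log2 scale. The number called lower was 5 without the metabolic control library, 9 without the heat-stressed and 8 without the metabolic *Dys* library. Of 25 UDP-glycosyltransferases, which add sugars to foreign compounds, 8 fell and 2 rose (median -0.50), in all 40%. *Ugt86Dd* dropped from 31.1, 22.6 and 121 FPKM to 4.21, 4.23 and 12.4 (-2.66 ± 0.51, adjusted p = 0.000719). *CG5724* (*Ugt37A2*) fell by 2.40 ± 0.86, *CG17323* (*Ugt36D1*) by 1.59 ± 0.37 and *CG10178* (*Ugt301D1*) by 1.41 ± 0.65. The lower count was 15 without the heat-stressed and 5 without the metabolic control library. Of 8 glutathione transferases 3 fell, led by *GstD3* (-1.44 ± 0.59), and 1 rose. Without either metabolic library 1 was called lower. The GstD genes are close copies, and their single values are uncertain. Of 11 genes in the antioxidant list 2 fell, 1 rose and 8 were not called. The share called was 27.3%, below the 41.9% of all loci, and the median was -0.10. Its lowest member, the peroxiredoxin *Prx2540-2*, had 41.3, 30.7 and 186 FPKM in control and 15.5, 8.4 and 22.1 in the mutants (-2.04 ± 0.87, adjusted p = 0.00109). *Prx2540-2* belongs to a set of near-identical copies as well. Of the enzymes that clear alcohol and aldehydes, *Aldh-III* fell by 1.24 ± 0.39 and *Aldh* by 0.92 ± 0.42, while the other 4 were not called.

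Odorant-binding proteins, small carriers that bring odours and other ligands to receptors, were lower. Of 33 read, 17 fell and 3 rose, with a median of -0.41. *Obp56g* was the most abundant of the named ones, with 827, 412 and 783 FPKM in control and 241, 135 and 130 in *Dys* mutants (-1.99 ± 0.52, adjusted p = 0.00347). This member is also made in the male reproductive tract. *Pbprp3* was at 90.5, 26.1 and 89.1 FPKM against 24.2, 3.38 and 43.2 (-1.84 ± 0.80, adjusted p = 0.062). The groups overlapped at *Pbprp3* and not at *Obp56g*, and *Pbprp3* was lost without either heat-stressed library, the unstressed control or the metabolic *Dys* library (adjusted p up to 0.232). *Obp51a* fell by 1.51 ± 0.48, and *Obp56i* rose by 0.90. Counts of this list moved with single libraries. The number called lower was 2 without the unstressed control, 3 without the metabolic control, and 11, 7 and 6 without the unstressed, heat-stressed and metabolic *Dys* library, and 1 member was called higher without the unstressed control or either metabolic library. Of 91 receptors of smell and taste, 17 fell and 10 rose, close to or below the shares of all loci, and the median was -0.06. *Ir85a* rose from 0.922, 1.37 and 0.819 FPKM to 4.33, 6.83 and 4.27 (1.58 ± 0.13, adjusted p = 1.93e-05). *Gr59a* and *Gr22b*, taste receptors at low level, fell by 1.13 ± 0.34 and 1.08 ± 0.54. The receptor counts varied too, with 6, 5 and 6 members called higher without the unstressed control, the metabolic control and the metabolic *Dys* library, and 10 called lower without the heat-stressed *Dys* library.

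Single genes of hormone and nutrient signalling changed in both directions, while the lists were near the background in the share called. *sNPF*, a neuropeptide that promotes feeding, rose from 0.103, 1.38 and 0.0816 FPKM to 8.3, 6.08 and 6.26 (2.46 ± 0.79, adjusted p = 5.68e-05). *Ilp2*, the main insulin-like peptide of the brain, had 21.1, 25 and 19.1 FPKM in control and 16.6, 10.6 and 7.91 in *Dys* mutants (-0.89 ± 0.49, adjusted p = 0.0135). Its receptor gene *InR* moved in the opposite direction, from 5.85, 5 and 4.28 FPKM to 13, 8.25 and 10.5 (0.93 ± 0.27, adjusted p = 0.00788). None of these 3 overlapped between groups. *CG11395* (*Gbp2*), a fat body growth-blocking peptide, fell by 1.45 ± 0.65, and the nutrient-sensing kinase *Tor* by 0.48 on the log2 scale. The transcription factor *foxo* fell by 0.68 at its main locus, and its loci summed gave -0.07. In all, 6 of 17 nutrient signalling genes fell and 2 rose, or 47.1% called against 41.9% of all loci. Of 28 genes of juvenile hormone and ecdysone, the hormones of moulting and maturation, 8 fell and 5 rose, or 46.4% called. *Jheh2* and *Jheh3*, hydrolases that break down juvenile hormone, fell by 1.46 ± 0.48 and 0.97 ± 0.50, and *Kr-h1*, a target of that hormone, by 0.62 ± 0.21. *Oatp74D*, the ecdysone importer, fell from 8.48, 8.86 and 9.19 FPKM to 2.92, 2.44 and 3.51 (-1.32 ± 0.18, adjusted p = 0.000101). Nuclear receptor genes of the ecdysone response differed among themselves. *Eip75B* had 4.81, 13.9 and 2.6 FPKM in control and 24.9, 26.6 and 17.4 in the mutants at its main locus (1.80 ± 0.80), and 0.80 with its 8 loci summed. *Hr46* rose by 1.32 ± 0.19 (1.02 summed), *Hr39* by 0.90 ± 0.60 and *Eip78C* by 0.55 ± 0.19. *Hr38* fell by 0.38 ± 0.11, and *EcR*, the ecdysone receptor (-0.16 ± 0.25), and *Hr4* (0.48 ± 0.38) were not called. *Jheh3* and *Kr-h1* were not called without the metabolic control, nor *Kr-h1* and *Hr39* without the heat-stressed *Dys* library (adjusted p up to 0.167, 0.184 and 0.106). The lower count of this list was 3 without the metabolic control library and 5 without the heat-stressed or metabolic *Dys* library, and the higher count was 3 without the unstressed control, 2 without the heat-stressed *Dys* and 3 without the metabolic *Dys* library.

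The remaining members of the complex itself changed little. Of 9 genes of the complex and its partners that could be read, only *kibra*, a Hippo pathway protein, was called, at 5.19, 3.83 and 5.56 FPKM in control and 3.31, 2.36 and 4.6 in *Dys* mutants (-0.43 ± 0.17, adjusted p = 0.0473). This call was lost without either unstressed library or the heat-stressed *Dys* library (adjusted p up to 0.146). *Dg*, the dystroglycan gene, had 14.2, 13.9 and 12.9 FPKM in control and 12.3, 10.9 and 10.3 in the mutants. The groups were apart, but the ratio of -0.27 ± 0.07 was not called (adjusted p = 0.128). *Syn1* (-0.10 ± 0.06) and *Syn2* (-0.37 ± 0.01), the syntrophins, were not called. The same was true of the sarcoglycan genes *Scgalpha* (-0.17 ± 0.18) and *Scgdelta* (-0.15 ± 0.14), of *Dyb*, the dystrobrevin gene (-0.06 ± 0.23), and of *yki*, the Hippo pathway effector (0.13 ± 0.18). The *Nos* locus was listed at 0 in all of the 6 libraries but the metabolic control, which had 0.263 FPKM.

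Matrix and adhesion genes, the outer partners of the complex, changed in both directions, with 8 of 29 higher and 8 lower. *Cg25C*, the collagen IV alpha 1 chain of basement membranes, fell from 11.3, 10.9 and 15.6 FPKM to 4.89, 4.51 and 3.02 (-1.41 ± 0.55, adjusted p = 0.00897). *trol*, the perlecan of the basement membrane, fell by 0.73 ± 0.43. Integrin chains separated. *if*, the alpha chain at muscle ends, fell from 14.5, 10.6 and 17.4 FPKM to 7.95, 6.63 and 5.58, whereas the alpha chain *mew* rose by 0.70 ± 0.20 and the beta chain *mys* by 0.88 ± 0.46. *Ndg*, the nidogen that ties laminin to collagen, rose by 0.99 ± 0.73, and *wb*, a laminin alpha chain, by 0.84 at its main locus (0.43 summed). *Pxn*, a matrix peroxidase, rose by 2.49 ± 1.22 at the locus read, but its 4 loci summed gave 0.24 (adjusted p = 0.411). The lower count was 5, 4 and 5 without the unstressed control, the metabolic control and the metabolic *Dys* library. Without the metabolic control *trol* and *mys* were lost (adjusted p up to 0.114 and 0.174), and *mys* also without the heat-stressed or metabolic *Dys* library. Among 17 targets and members of the Hippo growth pathway, 5 fell and 3 rose, and the lower count was 3 without any single library of the 6 except the heat-stressed control. *dally*, a heparan sulphate proteoglycan that holds growth factors, rose from 2.63, 2.99 and 2.45 FPKM to 21.3, 18.6 and 24 (2.59 ± 0.28, 1.23 summed). *vn*, a ligand of the EGF receptor, rose by 1.82 ± 0.30 (1.00 summed), and *ex*, an upstream brake of the pathway, by 0.92 (0.45 summed). *dlp*, a relative of *dally*, fell by 1.21 ± 0.69. Of 3 histone deacetylases, *HDAC6* fell by 0.49 ± 0.25 and *HDAC4* by 0.38 ± 0.28, and both calls were lost without either metabolic or the unstressed *Dys* library, and that of *HDAC4* without either heat-stressed library too (adjusted p up to 0.202 and 0.316).

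Nervous system genes changed at few members. Of 36 genes of synapses and channels, 6 fell and 4 rose, in all 27.8% against 41.9% of all loci (median -0.09). *DAT*, the dopamine transporter, fell from 8, 9.27 and 7.39 FPKM to 2.3, 0.995 and 1.33 (-1.89 ± 0.46, adjusted p = 8.34e-05). *ple*, which makes the dopamine precursor, was not called (-0.68 ± 0.72). *Syt1*, the calcium sensor of transmitter release, fell by 0.56 ± 0.37, and *Shab*, a potassium channel, rose by 0.89 ± 0.19. Without the heat-stressed *Dys* library *Syt1* was not called (adjusted p = 0.104) and 3 synapse genes were lower. In the eye, 4 of 18 phototransduction genes rose and 3 fell, in all 38.9%. The rhodopsin genes *Rh6*, *Rh4* and *Rh2* rose by 0.77 ± 0.36, 0.68 ± 0.49 and 0.68 ± 0.20, whereas *Rh3* (0.02 ± 0.65, adjusted p = 0.959) and *Rh5* (0.04 ± 0.52, adjusted p = 0.944) were not called. *Rh4* was not called without the metabolic control, where 2 members were higher and none lower. None was lower without the heat-stressed *Dys* library and 1 without the metabolic *Dys* library. The 69 cuticle protein genes had 13 members higher and 11 lower, in all 34.8%, with a median of 0.03. The synapse, phototransduction and cuticle lists thus each stood below the share of all loci. *Ccp84Ad* rose by 1.40 ± 0.23, and *Lcp65Ag3*, which has near-identical copies, fell from 85.2, 15.6 and 80.6 FPKM to 21.8, 11.3 and 12.8 (-1.64 ± 1.09). The cuticle counts were 6 higher and 6 lower without the metabolic control library, 7 lower without the unstressed control and 6 lower without the heat-stressed *Dys* library.

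Cell type markers gave these values beside the lists above. Of 15 haemocyte genes, markers of blood cells, 5 fell and 2 rose, in all 46.7% against 41.9% of all loci. The 5 included *Hml* (-0.70), *nimC1* (-0.79 ± 0.44) and *srp* (-0.74), which is not confined to these cells. Those that rose were the GATA cofactor *ush* (1.47 ± 0.84) and the growth factor *Pvf2* (1.17 ± 0.19). None of the 5 was called without the metabolic control and 2 without the metabolic *Dys* library. Of the fat body storage genes, 1 of 4 fell. Of 14 yolk and eggshell genes, which belong to females, 3 rose and 4 fell, and the largest change was that of *Cp15* (9.29, 9.53 and 7.59 FPKM against 19, 16.7 and 18.8). Without the metabolic control 1 of these rose and 2 fell. Marker lists of testis, accessory gland and muscle thus moved along with the other lists, and their part in the changes of ribosomal, metabolic and proteasome genes was not tested.

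To see where *Dys* mutants differed from the other mutants, they were set against the mean of the *Dg*, *Syn1* and *Nos* libraries, a contrast that uses no control library. Outside the deficiency 4582 loci (44.5%) were called (44.6% over all loci), of which 2246 (21.8%) were higher and 2336 (22.7%) lower in *Dys*. Muscle genes were among those that differed. Of 24 sarcomere genes 16 were lower in *Dys* than in the other mutants and 1 was higher. *tmod* was lower by 0.91 on the log2 scale (adjusted p = 0.000235) and *bt* by 0.81 (adjusted p = 0.00476). *Ca-P60A* was lower by 1.05 (adjusted p = 0.00696). Of 43 ribosomal protein genes 36 were lower and 2 higher. Those genes had medians against control of -0.41 in *Dg*, 0.09 in *Syn1* and 0.14 in *Nos* libraries, so that *Dg* was nearest to *Dys*. Of 9 glycolytic genes 5 were lower, among them *Gpo-1* by 1.37 (adjusted p = 0.00259). *UGP* did not differ by this test (-0.42, adjusted p = 0.333), with ratios to control of -1.51 in *Dg*, -2.29 in *Syn1* and -0.77 in *Nos*. Of 26 testis genes 12 were higher and 1 lower. Their medians against control were 0.43 in *Dys*, 0.34 in *Dg*, -0.2 in *Syn1* and -0.01 in *Nos* libraries, so that *Dg* was again nearest to *Dys*. Phototransduction genes stood lower in *Dys* than in the other mutants at 13 of 18 loci and higher at 2. Their medians against control were 0.14 in *Dys*, 0.53 in *Dg*, 0.66 in *Syn1* and 1.03 in *Nos* libraries, so that *Dys* was nearest to control. All of these medians against control share the same 3 control libraries.

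The single loci that differed most from the other mutants were *mt:CoI*, *CG14687*, *CG14692*, *CG42782*, *Mkp3*, *CG43061*, *TwdlE* and *CG31233*. *Mkp3* and the 3R pair *CG14687* and *CG14692* were near control in all the others. *Mkp3* had ratios to control of -0.02 in each of *Dg*, *Syn1* and *Nos*, and a difference of 3.59 (adjusted p = 5.35e-11). The difference was -4.16 for *CG14687* and 3.78 for *CG14692*. *CG42782* was lower than control in every mutant, at -1.98, -2.62 and -1.87 in *Dg*, *Syn1* and *Nos*, and lower still in *Dys* by 3.77 (adjusted p = 0.000372). *mt:CoI* was as high in *Nos* as in *Dys* libraries, with a ratio of 8.54. *TwdlE* was as low in *Dg* (-3.92) as in *Dys*, so that neither locus was particular to *Dys*. *sNPF* was higher in *Dys* than in the others by 2.75 (adjusted p = 6.47e-06), and *Dro* by 3.10 (adjusted p = 0.0224). *Cyp6a20* differed by 0.03 (adjusted p = 0.96) and was low in *Dg* (-3.62) and *Syn1* (-2.48) as well. *LysC* was higher in *Dys* by 2.96 than in the mean of the others, which joins 5.46 in *Dg* and 6.99 in *Syn1* with -0.01 in *Nos*.

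**Figure D5:**
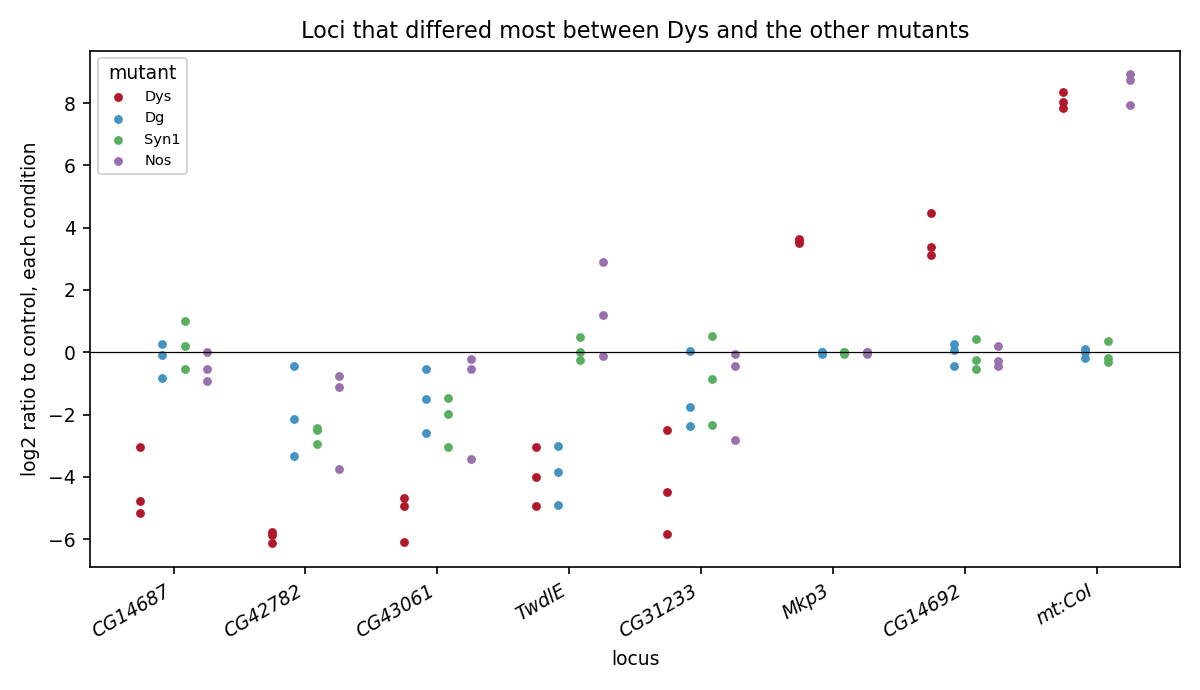
Log2 ratio to control (vertical) of the 8 loci that differed most between *Dys* and the other mutants, with a point for each condition and colours for the 4 mutants. Red *Dys* points stand apart from all others at *CG14687*, *CG42782*, *CG43061*, *Mkp3* and *CG14692*, while *Nos* shares the rise of *mt:CoI* and *Dg* the drop of *TwdlE*.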

How the data were processed

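Whole males of 5 genotypes were sequenced in 3 conditions (poly-A RNA, single-end reads), giving 15 libraries. The authors deposited FPKM values with a position, a name and a status for each of 14124 loci per library, and the tool behind these FPKM values is not given in the sources used here. The study's methods describe alignment with STAR to BDGP6, counts and DESeq2, and the submitters' processing notes name the same tools, but no counts were used. Of 10776 named loci, 426 whose status was not OK in all 15 libraries were left out, which left 10350, of which 993 list more than 1 gene.

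Ratios were taken on log2(FPKM + 1), a scale that understates changes of low loci. All 15 libraries entered a single model of genotype and condition in limma 3.58.1 under R 4.3.3 (8 residual and 2.76 prior degrees of freedom, median residual SD 0.193). Calls used Benjamini-Hochberg adjusted p at 0.1, against no change (eBayes) or against a 2-fold change (treat). Since the files hold no counts, these replace the count test of the study's methods. Tables and plots used Python 3.11.15, numpy 2.4.6, pandas 2.3.3 and matplotlib 3.10.9, and the fit was tested on simulated data. Other settings tried were median-ratio scaling, a pseudocount of 0.1, only loci with a mean FPKM of 1 or more, no condition term, an intensity-dependent prior variance, the 6 libraries alone, and each condition, other mutant or single library left out. Summing the loci of one name was added after the data had been seen.

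The members and lists were chosen with earlier results of these data known. Named genes are the 12 highest and 12 lowest loci called against a 2-fold change with a single name, one direction and a mean FPKM of at least 1, up to 4 called members of each list with the largest ratios (2 by level where none was called), the members of the complex, and the 8 loci with the largest difference from the other mutants. Further list members in the text were chosen after their values were seen. A list member was read at its locus with the highest mean FPKM. Older symbols are given as listed, with names from RefSeq in parentheses, and no coordinates were taken from that annotation.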

Additional observations from a re-analysis of the deposited data

Results flagged for a closer look

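Loci without a gene name were used in no comparison above. Of 3348 such loci in each table, 3336 had an OK status, and at 139 of these every *Dys* library lay above every control library with a mean log2 ratio of at least 1. At 112 unnamed loci the reverse held. The libraries did not overlap on the higher side at 635 of the 3336 unnamed loci, beside 1680 of 10290 named loci outside the deficiency (16.3%). For the mean log2 ratio alone, 2.76% of those named loci reached 1 and 5.52% reached -1. These unnamed counts are thus given as a description only. A further 9 unnamed loci were listed at 0 in all control libraries and at 1 FPKM or more in all *Dys* libraries.

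The next search covered only the 261 loci picked for naming here, and only those called both against control and against the other mutants. At a pair of them all 3 *Dys* ratios to control went one way and all 9 ratios of the other mutants the opposite way. The remaining loci with a gene name were not searched for this pattern. *Ir85a*, an ionotropic receptor gene, was higher in *Dys* than in the other mutants by 2.19 on the log2 scale (limma, adjusted p = 4.59e-07). *nrv3*, which encodes a subunit of the sodium pump in neurons, differed from the other mutants by -0.87 (limma, adjusted p = 0.00084), with 40.3, 32.5 and 36.6 FPKM in control and 32.1, 17.6 and 21.3 in *Dys* mutants. All these ratios share the same 3 control libraries.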

How the results depend on the processing

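The main counts in this section are over all 10350 loci, the deficiency region included. The count of loci called against a 2-fold change, 121, became 355 with a pseudocount of 0.1 and 61 in the 6 libraries alone. It was 57 without the unstressed libraries, 69 with loci of one name summed and 401 at an unadjusted P of 0.1. With single libraries left out it ran from 81 to 118. The count against no change, 4344, became 2640 without a condition term, 1448 without the unstressed and 2529 without the metabolic libraries, 808 where a 2-fold mean change was required as well, and 2462 to 4598 with single libraries left out. The count with a mean log2 ratio of at least 1, 864, became 2066 with a pseudocount of 0.1, and the count against the other mutants, 4617, became 466 where a 2-fold difference was required as well. The requirement of a 2-fold change and the summed loci were chosen after seeing the data. The cause of the other shifts was not tested. Of 261 named loci 240 were called, and 98 of these were called under every other setting of the model. Of 4676 values of named loci under these settings, 3977 kept direction and side of the threshold, 675 were no longer past it, 24 were newly past it and 0 reversed. Pairing was by condition, the only link between libraries that the labels give, in the ratios and as a term of the model. In the 6 libraries alone, as 3 such pairs, 3421 loci were called against no change. Low loci and close copies limit the reading of single values, since depth is unknown and the values hold no counts.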

Other observations

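Outside the deficiency, 53 loci were listed at 0 in all 3 *Dys* libraries and above 0 in all 3 control libraries, 9 of them with at least 1 FPKM in each control library. The reverse held at 21 loci, 4 of them with at least 1 FPKM in each *Dys* library.

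Several smaller gene groups showed single changes. Of 11 heat shock proteins and chaperones read, 4 rose and 3 fell, with *Hsp67Bb* higher (10.3, 10.9 and 10.1 FPKM in control, 18, 17.1 and 19.9 in *Dys* mutants) and *dj-1beta*, a protein of the oxidative stress response, lower by 0.77 ± 0.56 (not called without the unstressed control or either metabolic library). Without either metabolic library at most 1 was called higher, 2 without the heat-stressed *Dys* library, and at most 1 lower without any single library except the heat-stressed control. Among 14 genes of muscle wasting and autophagy, 4 fell and 2 rose, in all 42.9% against 41.9% of all loci. *myo*, the fly relative of myostatin, fell from 10.4, 10.8 and 12.5 FPKM to 7.31, 4.17 and 6.07 (-0.86 ± 0.37), and *Atg8b*, an autophagy gene used in the male germline, rose by 0.59 ± 0.20. The lower count was 2 without the unstressed or the metabolic control library. Of 10 clock genes 3 fell, or 30%, below the share of all loci. They were *Pdfr*, a receptor of clock neurons (-0.77 ± 0.21), *dco*, a kinase of the clock (-0.66 ± 0.53), and *vri* (-0.25 ± 0.13). The call of *vri* was lost without any single library (adjusted p up to 0.348). In the gut, *Tk*, a tachykinin of enteroendocrine cells and brain, fell from 11.1, 9.97 and 18.4 FPKM to 5.28, 3.46 and 7.06 (-1.17 ± 0.19). All these calls are from the limma model against no change.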
